A study of Homo sapiens with 6 samples.

Results

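The genes described here are 38 genes of the amino acid response driven by the transcription factor ATF4: ATF4 itself, its partner regulators, and enzymes, transporters, tRNA synthetases and stress regulators known as its targets. They were chosen by name from the known pathway, with earlier results of these data already known. Of the 38, 37 had a named probe, out of 18737 named genes on the array. SLC38A2, a neutral amino acid transporter gene, has no named probe here. RNA came from HSC3 cells, a human tongue cancer cell line of squamous origin, and carried Cy5 label on CodeLink Human Whole Genome Bioarrays. There were 6 arrays, 1 per condition, labelled with siRNA against LEMD1, MIA, MIA2, TANGO and MATE2, and as control. The array methods call the control cells untreated, while the siRNA methods and the deposited design name a control siRNA. With 1 array per condition, differences have no replicate check, ratios carry no error and no p-value is given, so that the small number of arrays sets the precision.

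When cells lack an amino acid, uncharged tRNA activates the kinase GCN2, encoded by EIF2AK4, which phosphorylates the translation factor eIF2. General translation then slows, while the ATF4 mRNA is translated more, so that ATF4 protein can rise with little change in its mRNA. ATF4 protein pairs with C/EBP proteins such as those of CEBPB and CEBPG and binds a composite DNA element called the CARE, which turns on genes for amino acid synthesis, amino acid import, tRNA charging and feedback on the pathway itself. Tumor cells use this program to keep growing when nutrients are scarce, and endoplasmic reticulum stress reaches it through another eIF2 kinase, PERK.

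The CARE, the element that ATF4 binds, was searched in 300 bases of promoter, mostly upstream of the gene start, taken from RefSeq (GRCh38.p14). Of the 38 genes, 33 had an entry, and ALDH1L2, EIF4EBP1, PSPH, SHMT2 and YARS1 had none. The letters TGATGNAAN, on either strand, occurred in 12 of the 33 promoters (36.4%), against 1268 of all 35116 promoters (3.61%). The stricter form TGATGCAAT, which is a special case of the first, occurred in 0 of the 33, against 83 of all promoters (0.236%). The promoters with a match were those of AARS1, ASNS, CARS1, CEBPG, CHAC1, GARS1, MARS1, NARS1, SLC1A4, SLC1A5, SLC3A2 and SLC7A1. The 6 printed here belong to genes that were changed on at least 1 array. Capitals mark the match, each line runs in the direction of the gene, and the position is that of the first capital relative to the gene start.
ASNS (chr7:97872458-97872486, minus strand, position -68): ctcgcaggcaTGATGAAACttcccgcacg
CHAC1 (chr15:40953251-40953279, plus strand, position -210): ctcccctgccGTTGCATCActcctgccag
AARS1 (chr16:70289676-70289704, minus strand, position -188): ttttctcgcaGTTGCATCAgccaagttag
CARS1 (chr11:3057408-3057436, minus strand, position -3): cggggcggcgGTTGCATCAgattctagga
NARS1 (chr18:57621804-57621832, minus strand, position 15): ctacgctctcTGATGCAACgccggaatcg
SLC1A4 (chr2:64989381-64989409, plus strand, position -8): gcggctcccgTTTGCATCAtctccagccg
In ASNS and NARS1 the match reads along the gene, and in CHAC1, AARS1, CARS1 and SLC1A4 it reads on the opposite strand. A match is a description of the letters and was not tested as a binding site.

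The deposited values are the brightness of each spot above its local background. They were quantile normalized over the 6 arrays, and the result is called the normalized signal, in arbitrary units. The scanner software marks each spot as good, near background or otherwise flagged, and a ratio was taken where the spot was good on both arrays. Called changed, higher or lower means 2-fold or more from the control array, a log2 ratio of 1 or -1 or beyond, by the brightest probe of the gene. All 5 comparisons share that 1 control array. Of the 37 genes, 33 had a good spot on all 6 arrays, and the other 4 were ALDH1L2, SLC1A4, SLC1A5 and PPP1R15A. The good gene probes per array numbered 27545 to 30628.

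The targeted genes and the cell type were checked first. LEMD1 was near background on the arrays labelled LEMD1 and MIA2 siRNA, at least 10.1-fold and 6.57-fold below its control signal of 278. It was at 3192 and 1011 on those labelled TANGO and MATE2 siRNA, log2 ratios of 3.52 and 1.86, and at 195 on that labelled MIA siRNA. SLC47A2, of which MATE2 is another name, was at 79.6 on the array labelled MATE2 siRNA and at 58.9 on that labelled TANGO siRNA, against 1509.8 on the control array. MIA2 was at 169 on its own array, against 155 on the control array, which goes against that label. MIA was near background on all 6 arrays, and MIA3, of which TANGO is a name, has no named probe. Of 7 squamous epithelium markers, 5 had a good spot on all 6 arrays. Of 14 markers of fibroblasts, endothelial cells and leukocytes, 5 had a good spot on all arrays and 5 on none, among them PTPRC, CDH5 and DCN. The summed signal of the squamous markers was 38875, 25169, 36982, 12253 and 13629.9 on the arrays labelled LEMD1, MIA, MIA2, TANGO and MATE2 siRNA, against 27874 on the control array. It was thus above control on the arrays labelled LEMD1 and MIA2 siRNA and below it on those labelled TANGO and MATE2 siRNA, and its part in the results that follow was not tested. The summed signals were 360.5 to 515 for fibroblast markers on the siRNA arrays, against 274 on the control array, 429.7 to 614 for endothelial markers, against 429, and 207 to 346 for leukocyte markers, against 321. In these bulk RNA samples, fewer cells that express a gene and less of its RNA per cell cannot be told apart.

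The ATF4 response genes called on the arrays labelled LEMD1 and MIA2 siRNA were all lower, and all but 1 of those called on the arrays labelled TANGO and MATE2 siRNA were higher. On the array labelled LEMD1 siRNA, 6 of 34 measured genes (17.6%) were lower and 0 were higher, where 3.98% of all named genes were lower and 2.04% higher. For MIA2 siRNA, as labelled, 11 of 34 (32.4%) were lower and 0 higher, where the shares of all named genes were 5.22% and 3.3%. The array labelled TANGO siRNA had 5 of 35 (14.3%) higher and 1 lower, against 5.58% higher and 9.09% lower over all named genes. The array labelled MATE2 siRNA had 7 of 35 (20%) higher and 0 lower, against 5.95% and 11.7%. For MIA siRNA 0 of 36 were changed, where 0.392% of all named genes were higher and 0.259% lower. With each array scaled to its median, the array labelled LEMD1 siRNA had 361 named genes lower and 387 higher, in place of 514 and 263, while of the ATF4 response genes 5 were lower and 0 higher.

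The median log2 ratio of the ATF4 response genes was -0.51, -0.05, -0.59, 0.01 and 0.21 on the arrays labelled LEMD1, MIA, MIA2, TANGO and MATE2 siRNA. Over all named genes it was -0.02, -0.04, -0.01, -0.03 and -0.03 in the same order. The order of the 6 arrays was also read, which does not use the control array as a denominator. Of the 33 genes good on all arrays, 17 (51.5%) had their lowest signal on the array labelled MIA2 siRNA and 8 (24.2%) on that labelled LEMD1 siRNA, against 15% and 13.2% of all named genes. The highest signal lay on the array labelled TANGO siRNA for 12 (36.4%) and on that labelled MATE2 siRNA for 11 (33.3%), against 24.3% and 19.6% of all named genes. The range over the 6 arrays was at least 2 on the log2 scale for 7 of the 33 (21.2%), against 7.31% of all named genes. These 7 were STC2, ASNS, EIF4EBP1, DDIT3, CHAC1, CTH and SARS1.

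**Figure D1:**
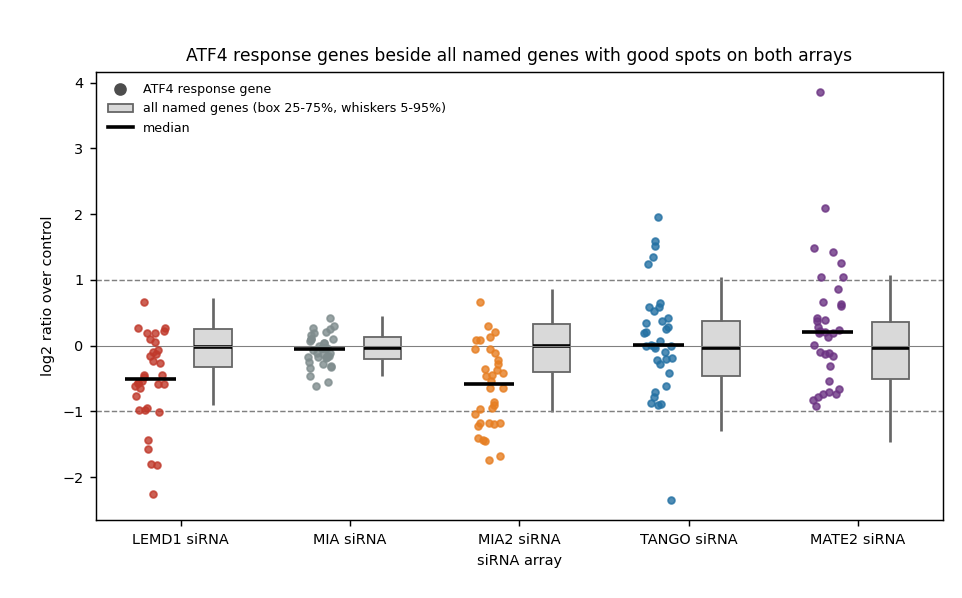
Log2 ratio over the control array (y axis) for the ATF4 response genes (coloured points, 1 per gene measured) beside all named genes (grey boxes, 25% to 75%, whiskers 5% to 95%) on each siRNA array (x axis), with black bars for medians and dashed lines at 2-fold. Of 34 points each, 26 and 28 lie below 0 on the arrays labelled LEMD1 and MIA2 siRNA, with medians of -0.51 and -0.59, and reach up to 3.85 on the array labelled MATE2 siRNA.

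Among the regulators, the mRNA of ATF4 was called on no array, while its targets DDIT3 and TRIB3 were higher on 1 array. ATF4 had a normalized signal of 1582, 2637, 1725, 2689.7 and 2562 on the arrays labelled LEMD1, MIA, MIA2, TANGO and MATE2 siRNA, against 2348 on the control array. Its log2 ratios ran from -0.57 to 0.20, and none reached 2-fold. DDIT3, which encodes the stress-induced factor CHOP, was at 234, 349, 255, 512 and 1456 in the same order of arrays, against 340.1 on the control array. It was 4.28-fold higher on the array labelled MATE2 siRNA, and all 4 other siRNA arrays were less than 2-fold from control. TRIB3, a pseudokinase that feeds back on ATF4 and CHOP, was at 200.0, 273, 197, 359 and 641, against 239 on the control array. It was highest on the same array, with a log2 ratio of 1.42, followed by the array labelled TANGO siRNA at 0.58. CEBPB, a C/EBP partner of ATF4, and CEBPG, another, were not changed on any array, with log2 ratios from -0.22 to 0.66 and from -0.70 to 0.29. For CEBPB a second good probe was at 0.99 on the array labelled MATE2 siRNA, just outside the threshold, where the brightest was at 0.66.

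ASNS, which makes asparagine and is a classic marker of the response, was the 1 gene called in both directions. Its signal was 272, 866, 296, 2429.5 and 1918 on the arrays labelled LEMD1, MIA, MIA2, TANGO and MATE2 siRNA, against 807 on the control array. The log2 ratios were -1.57, 0.10, -1.45, 1.59 and 1.25. It was lower on the arrays labelled LEMD1 and MIA2 siRNA, close to control on that labelled MIA siRNA, and higher on those labelled TANGO and MATE2 siRNA, a span of 8.94-fold from the lowest to the highest array. These calls held under every alternative processing run.

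The enzymes of serine and one-carbon metabolism gave calls on single arrays, apart from PCK2. PSPH, which releases free serine in the last step of its synthesis, was at 621, 634, 691, 938 and 1351 in the same order of arrays, against 653 on the control array. It was higher on the array labelled MATE2 siRNA at a log2 ratio of 1.05, and 0.97 to 0.99 under 3 of the alternatives. PHGDH, which starts serine synthesis, lay between 0.00 and 0.41, and PSAT1, which catalyses the step between them, between -0.97 and 0.38, so neither was called. SHMT2, the mitochondrial enzyme that moves a one-carbon unit from serine to folate, was at 948, 1677, 824, 1083 and 1119.7, against 1863 on the control array. It was below control on all 5 siRNA arrays and reached 2-fold on that labelled MIA2 siRNA alone, at -1.18. MTHFD2, the next enzyme of the mitochondrial folate pathway, was at 1319.6, 2255, 1091, 1360.0 and 2891, against 2536 on the control array, with a log2 ratio of -1.22 on the array labelled MIA2 siRNA. PCK2, the mitochondrial phosphoenolpyruvate carboxykinase, was at 44, 104, 56.3, 176 and 105, against 153 on the control array. It was lower on the arrays labelled LEMD1 siRNA (-1.80) and MIA2 siRNA (-1.44), but was at -0.93 to -0.89 on the second under 4 alternatives and at -0.98 on the first without background correction. ALDH1L2, a mitochondrial folate dehydrogenase, was near background on the control array and good on 2 arrays. There it was at 99.1 on that labelled TANGO siRNA, at least 2.89-fold higher, and at 74.9 on that labelled MATE2 siRNA, at least 2.19-fold higher, against a control spot of 22. These bounds set the bright spot against the lowest good signal of the other array.

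CHAC1 and CTH, which act on glutathione and its precursor cysteine, were both lower on the arrays labelled LEMD1 and MIA2 siRNA, and then differed. CHAC1, an enzyme that breaks glutathione down, was at 129, 279.7, 104, 367 and 541 on the arrays labelled LEMD1, MIA, MIA2, TANGO and MATE2 siRNA, against 350.0 on the control array. Its log2 ratios were -1.44 and -1.74 on the 2 arrays where it was lower, and 0.07 and 0.63 on those labelled TANGO and MATE2 siRNA. CTH, which makes cysteine by transsulfuration, was at 90.8, 382, 135, 84.9 and 228, against 431 on the control array. It was thus also lower on the array labelled TANGO siRNA, at -2.34, the array on which ASNS was highest, and no array was above control. CBS, the enzyme before CTH in that pathway, was not called, with log2 ratios from -0.64 to 0.64.

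**Figure D2:**
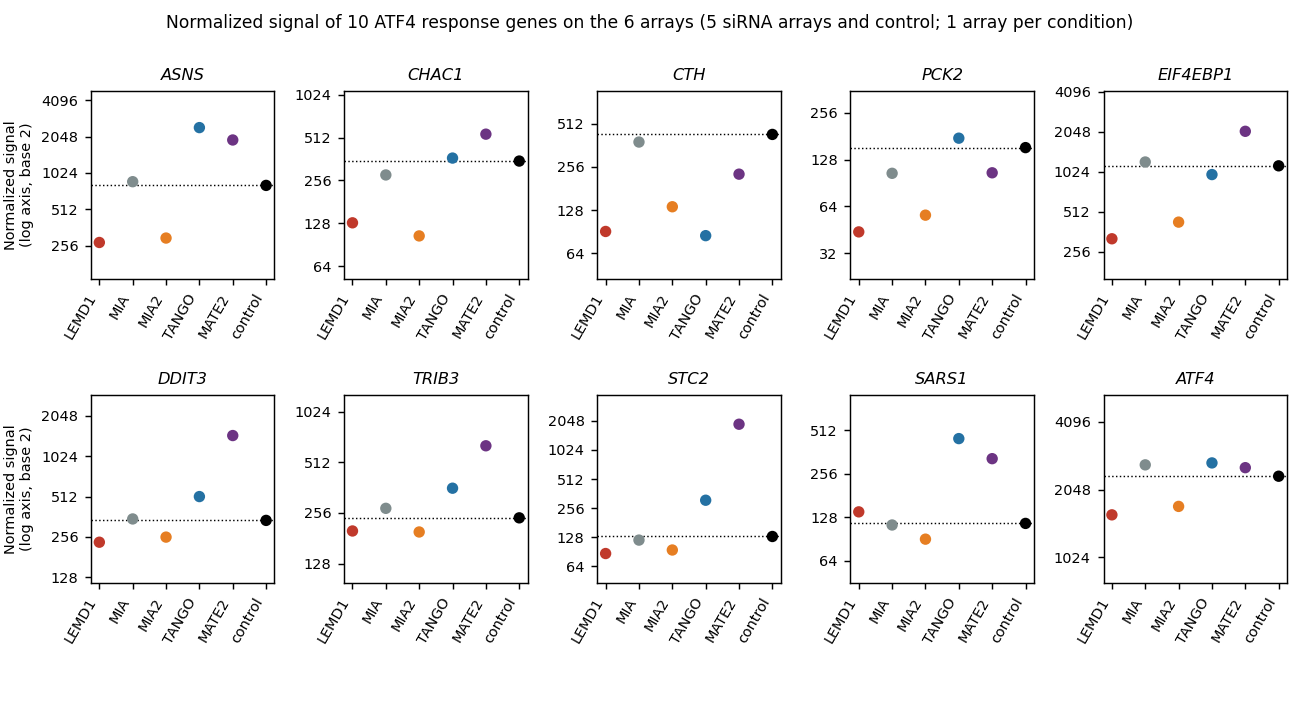
Normalized signal (y axis, log axis with base 2, arbitrary units) of 10 ATF4 response genes on the 5 siRNA arrays and the control array (x axis), 1 point per array, with a dotted line at the control signal. ASNS, CHAC1, PCK2 and EIF4EBP1 are lowest on the arrays labelled LEMD1 and MIA2 siRNA, CTH is lowest at 84.9 on that labelled TANGO siRNA, and DDIT3, TRIB3 and STC2 are highest on that labelled MATE2 siRNA.

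Amino acid transporters were the group with the fewest calls, but most had dim spots. SLC7A5, SLC1A5, SLC1A4 and SLC7A1 had control signals of 47.2 to 69, where the lowest good signal was 34.2. A lower spot could thus fall near background and go uncounted. The 1 call was among 4 measured genes on the array labelled MATE2 siRNA, where 5.95% of all named genes were higher. SLC1A4, a carrier of alanine, serine and cysteine, was at 103 on the array labelled MATE2 siRNA, against 49.9 on the control array, a log2 ratio of 1.05 that was 0.51 to 0.62 with normexp, without background correction or with 50 added to the signal. It was at 43.6 and 43.2 on the arrays labelled MIA and TANGO siRNA and near background, at 25.2 and 24.8, on those labelled LEMD1 and MIA2 siRNA. SLC3A2, the heavy chain shared by several amino acid exchangers, had a signal of 2359.8 to 4264. Its log2 ratio was 0.67 on both the array labelled LEMD1 siRNA and that labelled MIA2 siRNA, with its second good probe at 0.44 and 0.29. On those arrays SLC3A2 was thus above control while ASNS was lower. SLC7A5, a leucine carrier that pairs with SLC3A2, had a signal of 44.9 to 80.4, SLC7A1, a carrier of basic amino acids, one of 43.2 to 63.3, and neither was called. SLC1A5, a glutamine carrier, was good on 5 arrays and near background at 26.1 on that labelled MATE2 siRNA, against 52.7 on the control array, at least 1.68-fold lower.

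Among 9 cytosolic tRNA synthetases and the tRNA exporter XPOT, all 10 were below control on the array labelled MIA2 siRNA. Their median log2 ratio was -0.92, and 50.6% of all named genes were below control there. Of the 10, 4 were lower, where 5.22% of all named genes were lower. These 4 were YARS1 at -1.20, XPOT at -1.18, CARS1 at -1.17 and AARS1 at -1.04. They are the genes for the tyrosine enzyme, the exporter, the cysteine enzyme and the alanine enzyme. XPOT was at 651, 1077, 489, 1097 and 1108 on the arrays labelled LEMD1, MIA, MIA2, TANGO and MATE2 siRNA, against 1106 on the control array. YARS1 was at 631, 1017, 541, 678 and 724, against 1239 on the control array. For YARS1 every siRNA array lay below control, whereas XPOT stood apart from control mainly on the arrays labelled MIA2 siRNA and LEMD1 siRNA. AARS1 was at 265, 290.4, 175, 438 and 332, against 360.5 on the control array. CARS1 was at 188, 337, 167, 205 and 213, against 377 on the control array. CARS1 was also just inside the threshold on the array labelled LEMD1 siRNA, at -1.01, while YARS1 was just outside it there at -0.97. Under alternatives that ended these calls, CARS1 was at -1.0 to -0.82 on the array labelled LEMD1 siRNA and at -0.98 to -0.94 on that labelled MIA2 siRNA, AARS1 at -0.86 to -0.73, and YARS1 at -0.91.

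On the arrays labelled TANGO and MATE2 siRNA the synthetases split. SARS1, the serine enzyme, was at 139, 113, 90.3, 448 and 326 on the arrays labelled LEMD1, MIA, MIA2, TANGO and MATE2 siRNA, against 116 on the control array. It was higher at log2 ratios of 1.95 and 1.49 on the arrays labelled TANGO and MATE2 siRNA. NARS1, the asparagine enzyme, was at 338, 417, 254, 1009 and 605, against 399 on the control array, and was higher on that labelled TANGO siRNA at 1.34, with a ratio of 0.60 on that labelled MATE2 siRNA that was not called. In contrast, YARS1 and CARS1 were at -0.87 and -0.88 on the array labelled TANGO siRNA and at -0.77 and -0.83 on that labelled MATE2 siRNA. The other 4 synthetases, GARS1, WARS1, MARS1 and EPRS1, were called on no array, with log2 ratios from -0.94 to 0.38. A second probe of WARS1 differed from the brightest one, at 0.02 to 0.68 over the 5 siRNA arrays.

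EIF4EBP1, which encodes an inhibitor of cap-dependent translation, was lower on the arrays labelled LEMD1 and MIA2 siRNA. It was at 321, 1212, 428, 975 and 2061 on the arrays labelled LEMD1, MIA, MIA2, TANGO and MATE2 siRNA, against 1134 on the control array. The log2 ratio was -1.82 on the array labelled LEMD1 siRNA and -1.41 on that labelled MIA2 siRNA, with its second probe at -1.42 and -0.76. Both probes were above control on the array labelled MATE2 siRNA, at 0.86 and 0.87. DDIT4, an inhibitor of mTORC1, was at 1025, 831, 1102, 2571 and 837, against 896 on the control array. It was higher on the array labelled TANGO siRNA alone, at 1.52, and its second good probe was at -0.17 there, which put the mean over probes at 0.68. SESN2, a leucine sensor upstream of mTORC1, was at 293, 177, 268, 229 and 279.8, against 245 on the control array, with no call. PPP1R15A, which directs the removal of phosphate from eIF2, was near background on 3 arrays. It was at least 2.62-fold lower on that labelled LEMD1 siRNA, 1.95-fold on that labelled MIA2 siRNA and 2.5-fold on that labelled TANGO siRNA, against a control signal of 78.4. Such bounds, here and for ALDH1L2, are not among the genes counted as lower or higher.

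STC2, a secreted glycoprotein induced by stress, had the widest range of the 33 genes good on all arrays. It was at 87, 119.8, 94.6, 309 and 1887 on the arrays labelled LEMD1, MIA, MIA2, TANGO and MATE2 siRNA, against 130.5 on the control array. It was 14.5-fold higher on the array labelled MATE2 siRNA, and on that labelled TANGO siRNA it was 2.37-fold higher. The second of these was 0.95 to 0.99 on the log2 scale under 3 alternatives. VLDLR, a lipoprotein receptor, was called on no array, with log2 ratios from -0.37 to 0.35.

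**Figure D3:**
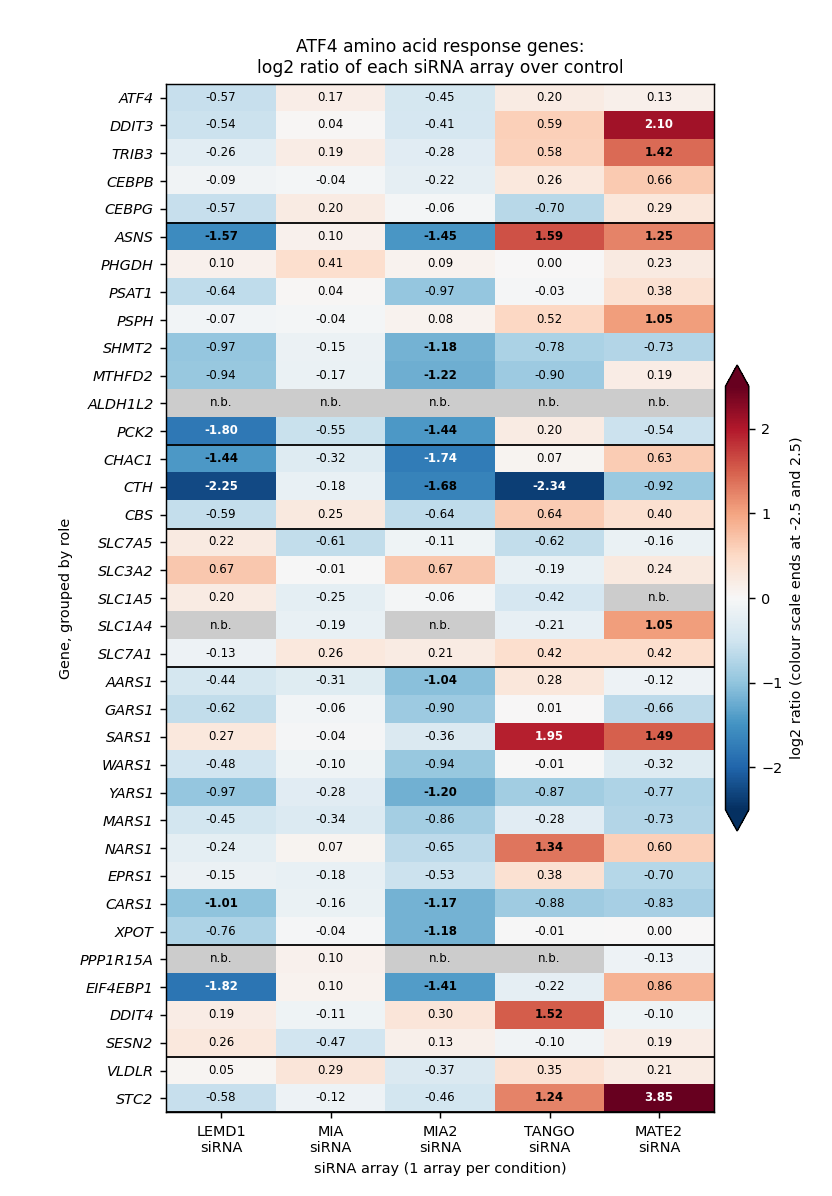
Log2 ratio over the control array for each ATF4 response gene (rows, grouped by role) on each siRNA array (columns), with the value in each cell in bold at 2-fold or more and n.b. where the spot was not good on 1 or both arrays. The blue cells of ASNS, PCK2, CHAC1, CTH and EIF4EBP1 on the arrays labelled LEMD1 and MIA2 siRNA and the red cells of ASNS and SARS1 on those labelled TANGO and MATE2 siRNA stand out, and the MIA siRNA column holds no value at 2-fold.

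Promoters with and without the CARE letters were set side by side. On the array labelled MIA2 siRNA, 4 of 11 measured genes with a match were lower, with a median log2 ratio of -0.86, and 4 of 19 without a match, with a median of -0.45. The counts were 3 of 11 and 2 of 19, and the medians -0.45 and -0.48, on that labelled LEMD1 siRNA. Higher on that labelled TANGO siRNA were 2 of 12 genes with a match and 3 of 19 without, with medians of -0.09 and 0.20, and 1 gene without a match was lower. Higher on that labelled MATE2 siRNA were 2 of 11 genes with a match and 4 of 20 without, with medians of 0.29 and 0.19. The median of the genes with a match was thus the higher one on the array labelled MATE2 siRNA and the lower one on that labelled TANGO siRNA. Over all named genes, 5.22% were lower on the array labelled MIA2 siRNA and 3.98% on that labelled LEMD1 siRNA. The shares higher were 5.58% for TANGO siRNA, with 9.09% lower, and 5.95% for MATE2 siRNA. With so few genes in each group, the counts do not set the 2 groups apart. Of the 5 genes with no promoter entry, 4 were measured on the array labelled MIA2 siRNA, where 3 were lower and the median was -1.19, below both groups. The genes called on these arrays without the letters in this window included CTH, PCK2, XPOT, DDIT3, TRIB3 and STC2.

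A further list of 25 reported ATF4 targets was read in the same way. This list too was chosen with earlier results of these data known, so it is not an independent check. Of 19 such genes measured on the array labelled LEMD1 siRNA, 4 were lower and 0 higher, and on that labelled MIA2 siRNA 5 of 16 were lower and 0 higher, where 3.98% and 5.22% of all named genes were lower. Higher on the array labelled TANGO siRNA were 3 of 18, with 1 lower, and on that labelled MATE2 siRNA 5 of 19 were higher and 1 was lower, where 5.58% and 5.95% of all named genes were higher. The median log2 ratios were -0.23, -0.14, -0.38, 0.14 and 0.31 on the arrays labelled LEMD1, MIA, MIA2, TANGO and MATE2 siRNA. GDF15, a stress-induced hormone, was at 43, 84.8, 48.5, 1053 and 1817, against 115 on the control array, and was lower on the arrays labelled LEMD1 and MIA2 siRNA and higher on those labelled TANGO and MATE2 siRNA. PYCR1, which makes proline, was at 222, 518, 269.8, 1241 and 1429, against 613 on the control array, and was called on the same 4 arrays in the same directions. GPT2, which makes alanine in mitochondria, and TXNIP, which holds back glucose uptake, were lower on the arrays labelled LEMD1 and MIA2 siRNA. VEGFA, an angiogenic growth factor, was higher on those labelled TANGO siRNA (1.86) and MATE2 siRNA (1.51), and JDP2, a bZIP repressor, was lower there at -2.66 and -2.25.

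Neighbouring lists had 0 to 1 calls each on the arrays labelled LEMD1 and MIA2 siRNA. There 3.98% and 5.22% of all named genes were lower, so counts this small in short lists do not set these lists apart. The lists overlap with the list of further targets. That list also holds IARS1, LARS1, RARS1 and TARS1 of the cytosolic synthetases and NARS2 of the mitochondrial ones. The call of LARS1 thus stands in both. Of 10 measured cytosolic synthetases outside the ATF4 response genes, 0 were lower on the first and 1, LARS1, on the second, with medians of -0.04 and -0.38. Of the mitochondrial synthetases, which serve a separate translation system, 0 of 16 and 1 of 15 were lower, with medians of -0.15 and -0.03. On the array labelled MATE2 siRNA, where 11.7% of all named genes were lower, 4 of 15 mitochondrial synthetases were lower, with a median of -0.65, and VARS1, the cytosolic valine enzyme, was at -2.08. Of the eIF2 kinases, eIF2 and eIF2B genes, 0 of 14 were called on either of the arrays labelled LEMD1 and MIA2 siRNA. Among them EIF2AK4, the amino acid sensing kinase GCN2, was lower at -1.40 on the array labelled MATE2 siRNA, EIF2AK2, the kinase PKR, was lower at -1.52, and IMPACT, an inhibitor of GCN2, was higher at 1.09 there. IMPACT was also higher on that labelled TANGO siRNA, at 1.11, and EIF2B2, of eIF2B, was lower there at -1.42. Of 15 genes of this list measured on each of these arrays, 2 were lower and 1 higher for MATE2 siRNA. For TANGO siRNA, 1 was lower and 1 higher. Over all named genes, 11.7% and 9.09% were lower and 5.95% and 5.58% higher on the arrays labelled MATE2 and TANGO siRNA.

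Outside the ATF4 branch, the endoplasmic reticulum chaperone list holds 12 genes. Of these, 9 were measured on the array labelled LEMD1 siRNA and 8 on that labelled MIA2 siRNA. XBP1, the transcription factor of another branch of the stress response, was the 1 gene called on each, and was lower. It was at 370.1 and 427 there, against 989 on the control array. On these arrays 3.98% and 5.22% of all named genes were lower. Of 9 measured on the arrays labelled TANGO and MATE2 siRNA, none was called, with medians of 0.21 and 0.08. There 5.58% and 5.95% of all named genes were higher. HSP90B1 and SDF2L1 have no named probe. HSPA5 was near background on the control array and was not counted. It was at least 1.42-fold and 1.73-fold higher on the arrays labelled TANGO and MATE2 siRNA, and 1.22-fold on that labelled LEMD1 siRNA. These good spots were dim, at 48.8, 59.2 and 41.9, and a spot of 42.1 was near background on the array labelled MIA2 siRNA. The HSPA5 bounds thus rest on signals close to background. Of 11 other folate and serine genes, 6 were measured, and calls fell on 2 arrays. On the array labelled TANGO siRNA 1 of 6 was lower, where 9.09% of all named genes were lower. On that labelled MATE2 siRNA 2 of 6 were lower, where the share was 11.7%. SHMT1, the cytosolic counterpart of SHMT2, was lower at -2.18 on the array labelled TANGO siRNA and at -1.55 on that labelled MATE2 siRNA, where SFXN1, a mitochondrial serine carrier, was also lower at -1.06.

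**Figure D4:**
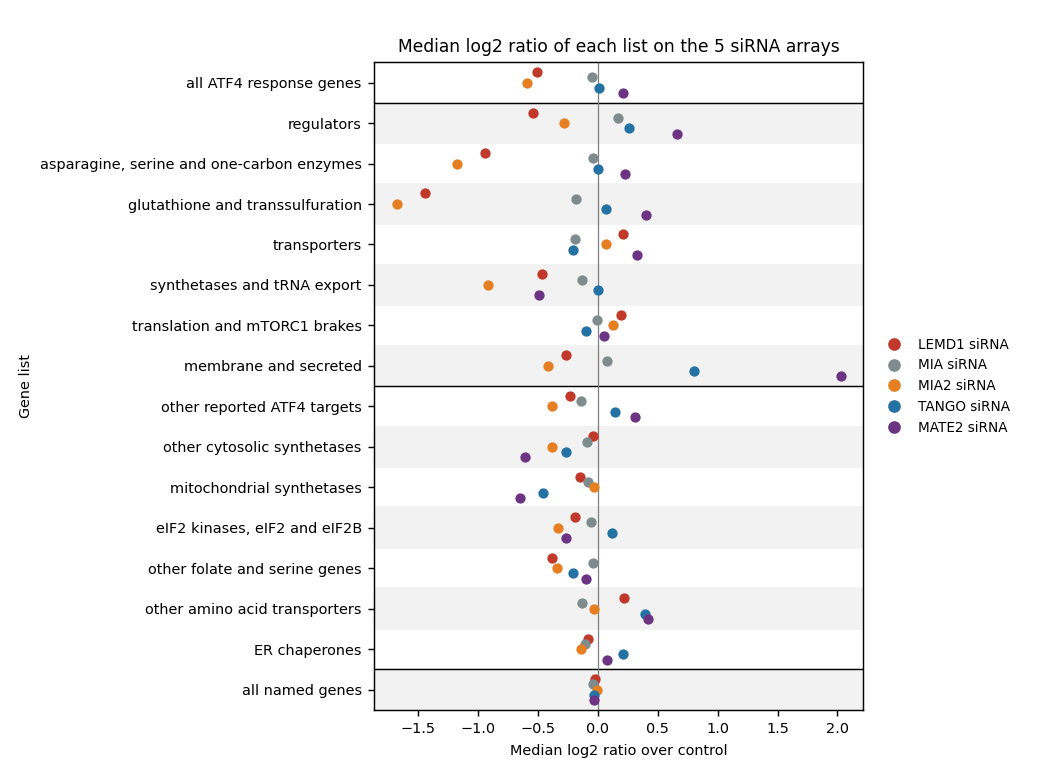
Median log2 ratio over the control array (x axis) of each gene list (y axis: all ATF4 response genes, then their roles, then neighbouring lists, then all named genes) on the 5 siRNA arrays (colours). The ATF4 response genes lie at -0.51 and -0.59 on the arrays labelled LEMD1 and MIA2 siRNA, all named genes lie within -0.04 and -0.01 on every array, and the synthetases and tRNA export list lies at -0.92 on the array labelled MIA2 siRNA.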

How the data were processed

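The deposited scanner tables hold spot intensity, mean minus local median background, as extracted by the authors with CodeLink Expression Analysis 5.0.0.31312, with a quality flag per spot. Of 53423 gene probes, 320 masked on any array were left out. The other 53103 were quantile normalized over the 6 arrays, as the methods of the study name, then floored at 1 and log2 transformed. The authors' deposited normalized table of the same arrays served as an alternative. The platform annotation gave 1 symbol to 23960 probes, several to 898 and none to 28245, and no gene was named from a probe with several. The brightest probe stood for a gene, and 8 ATF4 response genes had several probes. A change was 2-fold with a good spot on both arrays, with no test, since each condition has 1 array. Values on every array are given for each gene that was changed on at least 1 array, and for ATF4, ASNS, CHAC1, DDIT3, TRIB3 and SESN2 in any case. The genes and lists were chosen with earlier results of these data known. Where a spot was near background on 1 array of a pair, the ratio is a bound against the higher of its own signal and the lowest good signal there. Alternatives were median scaling, normexp (limma 3.58.1 in R 4.3.3, offset 50), no background correction, 50 added to the signal, the deposited table, the mean over good probes, other flag filters, normalization without 2 arrays and the MIA siRNA array as comparator. Other steps ran in Python 3.11.15 with numpy 2.4.6 and pandas 2.3.3, and the ratio step was tested on simulated data.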

Additional observations from a re-analysis of the deposited data

How the results depend on the processing

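Over 10 alternatives, from another background correction to another comparator array, the ATF4 response genes lower numbered 4 to 7 on the array labelled LEMD1 siRNA and 8 to 12 on that labelled MIA2 siRNA, with 0 higher on both, and 0 were changed on that labelled MIA siRNA. Higher were 4 to 6 on the array labelled TANGO siRNA, and on that labelled MATE2 siRNA 5 to 8. Lower on the array labelled TANGO siRNA were 2 genes in place of 1 with median scaling, with spots good on at least 1 array and with no filter on flags, and on that labelled MATE2 siRNA 1 in place of 0 with the last 2 of these. Median log2 ratios ran from -0.55 to -0.37, -0.09 to -0.03, -0.64 to -0.47, -0.03 to 0.12 and 0.15 to 0.29 on the arrays labelled LEMD1, MIA, MIA2, TANGO and MATE2 siRNA, so the sign held on all but that labelled TANGO siRNA. Median scaling put the median of all named genes at 0.11 on the array labelled LEMD1 siRNA, in place of -0.02. Of 300 checks on 30 called ratios, 271 kept the call, 29 lost it and 0 reversed. Calls were lost most often without background correction (8), with normexp (7) and with an added 50 (7), and the cause was not tested. The 2 other flag filters could not end a call, since a called ratio is already good on both arrays, and all 30 held under each. Nor could the mean over good probes for a gene with 1 good probe. The count of 271 includes these checks, so it overstates how well the calls held. Counts over all named genes, lower and higher, ran from 257 to 1553 and 134 to 1325 (LEMD1), 4 to 1037 and 12 to 1126 (MIA), 327 to 1900 and 188 to 1645 (MIA2), 621 to 2496 and 383 to 2056 (TANGO), and 862 to 2865 and 389 to 2095 (MATE2). Normalization without the arrays labelled LEMD1 and MIA2 siRNA was chosen after seeing the data and ended none of 13 calls. No paired analysis was possible because each condition has 1 array. Genes with a signal near the lowest good spots, 27.5 to 38.6, have the least certain ratios.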

Other observations

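Amino acid transporters outside the ATF4 response genes were also measured. SLC1A3, a glutamate carrier, was higher on the array labelled TANGO siRNA at a log2 ratio of 2.03, and SLC7A8, a partner of SLC3A2, at 1.03. SLC36A4, a lysosomal and plasma membrane amino acid carrier, was lower there at -2.0 and on the array labelled MIA2 siRNA at -1.20. SLC7A11, the cystine importer and a reported ATF4 target, was at 275 on the array labelled MATE2 siRNA, against 40.4 on the control array, and near background at 20.5 on that labelled TANGO siRNA, at least 1.29-fold lower.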
